A study of Mus musculus with 3 samples.

Results

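The protocadherin genes are the largest branch of the cadherin superfamily of cell adhesion molecules. They were taken as all protein-coding genes on the mm10 autosomes whose symbol begins with Pcdh, which gave 67 genes of 20556 autosomal protein-coding genes. Of these, 57 stand in 3 neighbouring clusters on chromosome 18, with 14 genes in Pcdha, 22 in Pcdhb and 21 in Pcdhg, and 10 are single genes. The 2 X-linked genes and 1 pseudogene of the Pcdhg cluster were outside the rule. The measurement was a list of intervals enriched for 5-hydroxymethylcytosine (5hmC), the base that TET enzymes make from 5-methylcytosine. An interval counted for a gene when its midpoint lay in the gene's span or within 5 kb of it.

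The series holds 3 mouse bone marrow samples. There are 2 of an acute myeloid leukaemia called NIDF-AML, induced by IDH2 with the R140Q change, NPMc, DNMT3A with the R882H change and FLT3-ITD, and 1 of normal marrow. Strain, age, promoters and the number of animals are not given in the labels. The list deposited for each leukaemia sample was used, and no list of normal marrow was analysed here. The 2 lists are the same in all 223267 lines, so they were counted as 1 list of 208468 distinct intervals with a median width of 65 bp, and there is no spread between replicates. In both headers the treatment is a library called index 4. The control is index 5 in the header of leukaemia replicate 1 and index 6 in that of replicate 2. The labels do not tie index 4 to any of the 3 samples. Whether the lists hold a difference between leukaemia and normal marrow thus cannot be told, and no value below is read as one. Since the intervals were called against a control, a site with as much signal in the control may also be unlisted. The intervals carry no score or read count and read depth is unknown, so a gene without an interval is a gene at which none was listed. As a look at the labelled tissue, the blood cell genes Kit, Spi1, Mpo and Elane had 38, 34, 13 and 11 intervals within 5 kb, and Snap25, Syt1 and Gad1 of neurons and Alb of hepatocytes had none. The neuronal gene Rbfox3 had 14.

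In Pcdha and Pcdhg, each gene begins with its own promoter and its own large variable exon, which is spliced to a set of constant exons shared by the whole cluster. Pcdhb genes have a variable exon alone. Neurons switch on a few of these promoters per cell, with the help of the chromatin factors CTCF and cohesin, and the resulting mixture of surface proteins lets a neuron tell its own branches from those of others. The c type genes at the end of Pcdha and Pcdhg are regulated apart from the rest. Methylation of the promoters goes with silence of the clustered genes. In many tissues 5hmC lies mostly in the bodies of active genes.

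Most 5hmC intervals at protocadherin genes lay at the downstream end of Pcdhg and at the single genes Pcdh1 and Pcdh12. An interval was listed at 34 of the 67 genes, or 50.7% (Wilson 95% interval 39.1 to 62.3%), against 76.1% of all autosomal protein-coding genes. By the span alone it was 33 genes, or 49.3%, against 69.4%. The count per gene overstates the number of sites, because clustered genes share sequence: 33 distinct intervals lay at all 67 genes. Of the 33, the Pcdhg cluster held 16, the Pcdha and Pcdhb clusters 1 each, and the single genes 15. Taken as 13 separate loci, the 3 clusters and the 10 single genes, 7 had an interval. Wilson and Poisson intervals here cover counting error only. The Poisson ranges treat listed intervals as independent, and the Wilson ranges treat genes so. Clustered genes share listed intervals, so the Wilson range for the 67 genes is too narrow. With 1 list and no replicate, no test was made, and these shares describe this list.

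Shares were below those of autosomal genes in every span class. Under 10 kb of span, where all 22 Pcdhb genes fall with Pcdh8 and Pcdh20, 2 of 24 genes had an interval, against 58.6% of autosomal genes of that span. From 10 to 30 kb it was 4 of 5 against 83.1%, and from 30 to 100 kb 6 of 10 against 88%. From 100 to 300 kb, a class made up of Pcdha and Pcdhg genes that share their intervals, it was 20 of 25 against 88.4%. Over 300 kb it was 2 of 3, Pcdh7 and Pcdh15, against 83.1%. The share of 4 of 5 is near that of all genes of its span, and 2 of 3 rests on too few genes to be told apart from it.

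The Pcdha cluster spans 259 kb on chromosome 18 (36930285 to 37188897) and held 1 interval (exact Poisson interval 0.0253 to 5.57). It lay at 36975836 to 36975916, which is 2.06 kb past the start of Pcdha7 and 213 kb before the shared end of the cluster. The spans of Pcdha1 to Pcdha7 all contain it, so 7 of the 14 Pcdha genes count as having an interval, and those from Pcdha8 to Pcdhac2 had none. The variable part, from the start of Pcdha1 to the start of Pcdhac2, thus had 1 interval in 213 kb. The constant end, from the start of Pcdhac2 to the shared end, had 0 in 45.2 kb, a count whose exact Poisson interval reaches 3.69. The annotation used here gives 1 span per gene and no exons, so the constant end contains the last variable exon together with the constant exons.

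The Pcdhb cluster spans 256 kb (37264998 to 37521419) and also held 1 interval. It lay at 37515448 to 37515544 within Pcdhb21, 1.84 kb past the start of that gene, and within 5 kb of Pcdhb22, the last gene of the cluster. The other 20 genes, from Pcdhb1 to Pcdhb20, had none within 5 kb. Per length, Pcdha held 0.387 and Pcdhb 0.39 intervals per 100 kb, against 13.7 per 100 kb over the merged spans of all autosomal protein-coding genes. The Pcdhb length includes the sequence between its genes, which the merged spans leave out, so its value is not a like comparison.

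Between the Pcdha7 interval and the Pcdhb21 interval no interval was listed over 540 kb. The starts of 28 protocadherin genes fall in that stretch, and 27 of these genes, Pcdha8 to Pcdhac2 and Pcdhb1 to Pcdhb20, lie in it whole. The 76.1 kb between the clusters Pcdha and Pcdhb had none either. Before Pcdha the last listed interval lay 186 kb upstream of the one in Pcdha7, at the tRNA synthetase gene Hars2.

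**Figure D1:**
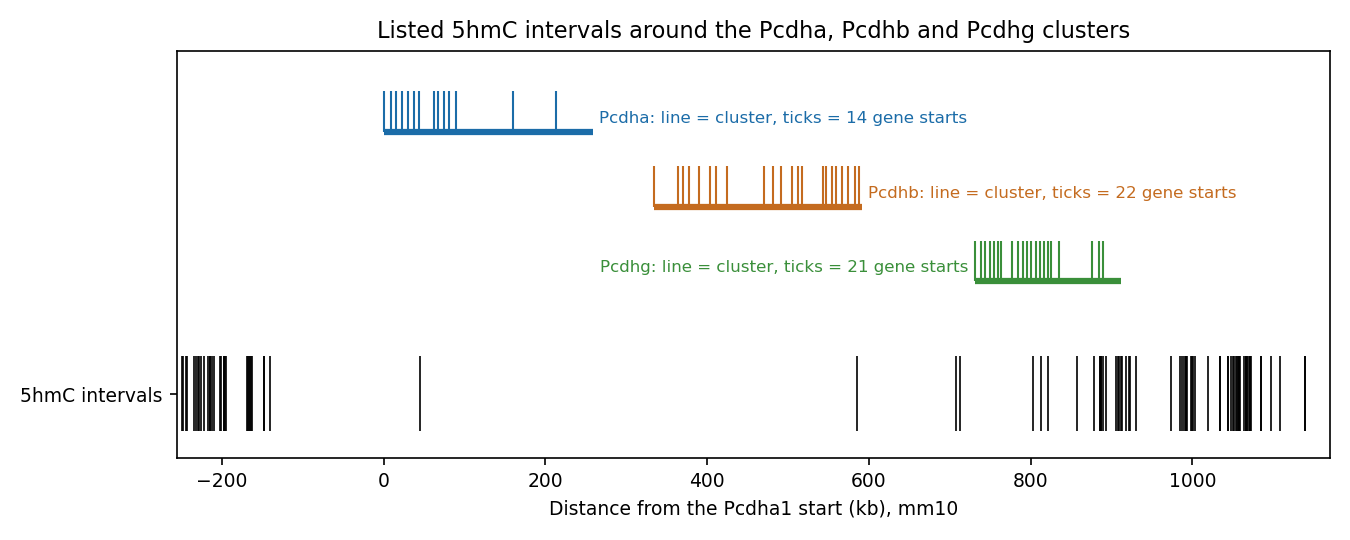
Positions of the listed 5hmC intervals (black ticks) along the 3 clusters, as distance in kb from the start of Pcdha1, with the extent of each cluster as a coloured line and its gene starts as coloured ticks. Pcdha and Pcdhb hold 1 interval each, the downstream end of Pcdhg holds many, and no interval is listed in the 140 kb before Pcdha1, with many farther out and after Pcdhg.

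The Pcdhg cluster held more intervals than the Pcdha and Pcdhb clusters beside it. It spans 180 kb (37661775 to 37841873) and held 15 intervals within this span, or 8.33 per 100 kb (exact Poisson interval 4.66 to 13.7), and 1 more within 5 kb past the shared end. The Poisson intervals of Pcdha (0.00979 to 2.15 per 100 kb) and Pcdhb (0.00987 to 2.17) lay below that of Pcdhg. The merged spans of all autosomal protein-coding genes held 13.7 per 100 kb, above the Pcdhg value and at its upper limit. Taken whole, Pcdhg was thus dense only beside Pcdha and Pcdhb. All 21 Pcdhg genes counted as having an interval, since all their spans run to the same end.

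Within Pcdhg the intervals gathered downstream. The first 70.9 kb, which holds the starts of Pcdhga1 to Pcdhgb5 and thus of 12 genes, had no interval up to the first one at 37732688. The 145 kb from the first start to the start of Pcdhgc3, the part with the a and b type genes, held 4 intervals, or 2.77 per 100 kb (0.754 to 7.08). The remaining 35.5 kb, with the 3 c type genes and the constant exons, held 11, or 31 per 100 kb (15.5 to 55.5). That range lay above the 13.7 per 100 kb of the merged spans of all autosomal protein-coding genes. These 11 were 73.3% of the intervals in 19.7% of the length.

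The split at Pcdhgc3 was chosen after the positions were seen. With the constant end taken from the start of the last gene, Pcdhgc5, it held 6 intervals in 22.3 kb, or 26.9 per 100 kb (9.86 to 58.5). The variable part then held 9 in 158 kb, or 5.7 per 100 kb (2.61 to 10.8). The constant end was denser by either split, by 73.3% or 40% of the 15 intervals in 19.7% or 12.4% of the length.

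The 4 intervals among the a and b type genes can be placed by gene start. The first lay 1.78 kb past the start of Pcdhgb5, the next 1.72 kb past that of Pcdhgb6 and the next 0.077 kb past that of Pcdhgb7. The fourth lay 22 kb past the start of Pcdhga12, in the stretch before the c type genes. No interval fell between the start of an a type gene and the next start, except that one after Pcdhga12.

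Among the c type genes, Pcdhgc3 had 1 interval, 2.3 kb past its start. Pcdhgc4 had 4 within the 4.47 kb before the next start, at 0.833, 1.63, 2.21 and 2.8 kb past its own start. Pcdhgc5 had 1 at 0.75 kb and 1 at 4.39 kb past its start, and then 4 in the last 6.33 kb of the cluster, at 6.33, 3.11, 1.86 and 0.177 kb before the shared end. The c type genes and the last stretch of the cluster were thus the places where intervals lay close together. Over all 3 clusters, 10 of the 17 intervals inside them lay at most 2500 bp past a gene start, a zone that makes up 20.5% of the clusters' length. The limit of 2500 bp was chosen after the distances were seen, and without exons it cannot be told whether these intervals lie in variable exons.

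The lines of the deposited list repeat at Pcdhg more than anywhere else in it. Each of the 15 intervals inside the cluster is written 13 to 22 times, and they are all of the 15 intervals in the whole list that are written 10 times or more. The number of lines followed the number of overlapping genes. At 17 of the 18 intervals at or within 5 kb of the clusters it equalled the number of Pcdh spans that hold the midpoint when each span is extended by 5000 bp upstream, with 1 line where there was no such span. The pseudogene Pcdhgb8 is counted among these spans. Without the extension, the number was equal at 9 of 18. The header names an upstream padding of 5000 bp for genes. The exception was the interval 0.177 kb before the shared end, written 22 times where 21 spans hold it. The Pcdha7 interval is written 7 times and the Pcdhb21 interval 2 times. With repeated lines kept, the Pcdhg cluster would have 305 entries in place of 16 intervals, so each interval was counted once.

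**Figure D2:**
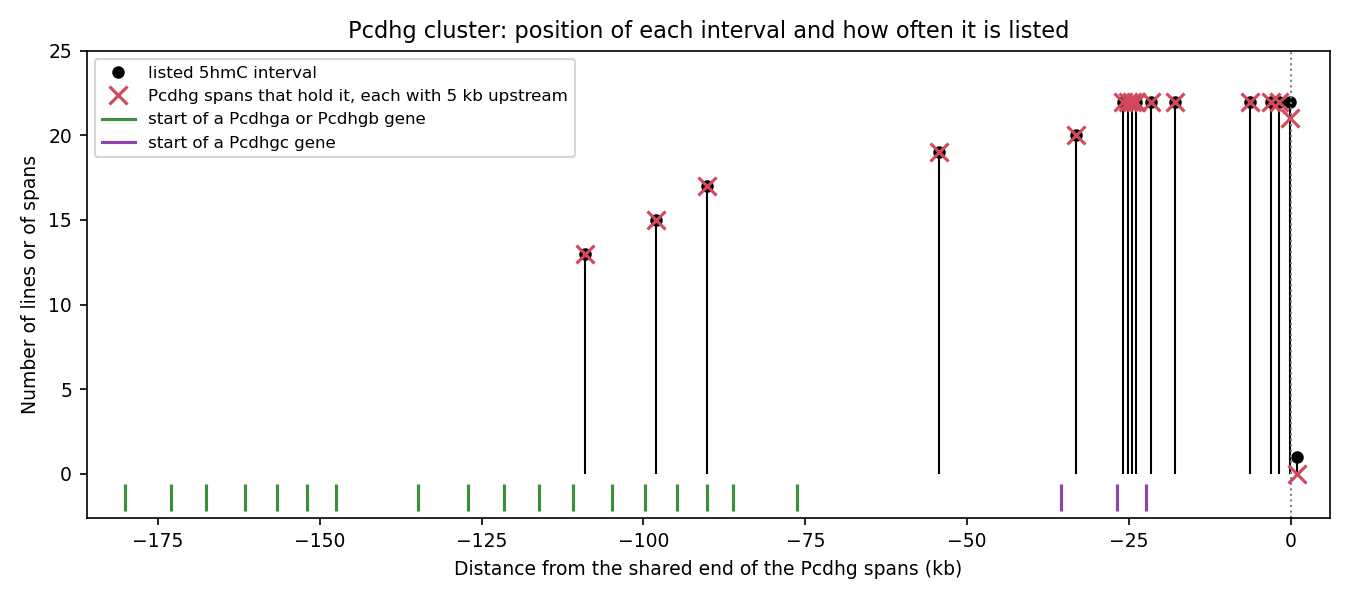
Intervals at Pcdhg by distance in kb from the shared end of the spans. Black points give how many lines list the interval, red crosses how many Pcdhg spans hold it (each span extended 5 kb upstream, Pcdhgb8 included), and ticks below 0 mark gene starts. Points and crosses coincide at 13 to 22 except at the 2 intervals nearest the shared end, where they read 22 against 21 and 1 against 0.

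The stretch without intervals at Pcdha began outside the cluster. No interval was listed in the 140 kb next to Pcdha1, and the sequence farther out and that after Pcdhg held many. From the Pcdha1 start to the shared Pcdhg end there were 19 intervals in 912 kb, or 2.08 per 100 kb (1.25 to 3.25). This count includes the 2 between Pcdhb and Pcdhg, at the genes Slc25a2 and Taf7. The 250 kb before Pcdha1 held 30, or 12 per 100 kb, all of them beyond those 140 kb, and the 250 kb after Pcdhg held 47, or 18.8 per 100 kb. Diaph1, a formin gene that lies right after Pcdhg, held 16 in its 92 kb, or 17.4 per 100 kb, and Arap3, which acts on small GTPases, 17 in 26.9 kb. On the other side, Cd14, the monocyte receptor for bacterial lipopolysaccharide, had 3 within 5 kb, and Zmat2, the nearest gene before Pcdha, had 1.

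Most other neighbours had intervals as well. Of the 21 protein-coding genes that are no protocadherins and lie within 250 kb of the clusters or among them, 20 had an interval within 5 kb, against 76.1% of all autosomal genes, and Ndufa2, a subunit of respiratory complex I, had none. Hars had 8, E230025N22Rik 7, Dnd1 and Wdr55 6 each, Slc35a4 5, Tmco6 and Fchsd1 4 each and Hars2 3. Slc25a2, Taf7 and Hdac3, a histone deacetylase, had 2 each, and Ik and Rell2 1 each. The 3 gene models Gm37013, Gm38666 and Gm38667 run from Pcdha to the end of Pcdhg and had 20 each, which are intervals of the clusters and of Slc25a2 and Taf7. Without these models it was 17 of 18 genes.

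For scale, autosomal tiles of 250 kb, about the length of Pcdha and of Pcdhb, held a median of 5 intervals and a mean of 21.6. Of the 9606 tiles, 25.7% had none and 37.1% had 1 or none. Stretches with 1 interval or none are thus no rarity on the autosomes. It is against gene bodies that Pcdha had few. Of the Pcdhb genes, all under 10 kb, 2 of 22 had an interval within 5 kb, against 58.6% of autosomal genes of that span. The sequence directly beside both clusters also held few or none.

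The 10 single protocadherins fell apart by place. Pcdh1 and Pcdh12 lie on chromosome 18, downstream of the clusters, and had 5 and 6 intervals within 5 kb. The other 8 genes had 4 intervals in all. The median of the 10 was 0, against 4 over all autosomal protein-coding genes.

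Pcdh1, which is known from airway epithelium, spans 26.1 kb (38185914 to 38212048) and held 4 intervals in its span and 1 just outside. These were spread over the gene, at 3.66, 13.2, 17.9 and 22.5 kb from its lower end. Pcdh12, a protocadherin of endothelial cells, spans 17.3 kb (38267092 to 38284401) and held 4 in its span, at 1.94, 5.4, 15.4 and 16.7 kb from its lower end, and 2 below it within 5 kb. The counts of 5 (exact Poisson interval 1.62 to 11.7) and 6 (2.2 to 13.1) stood at and just above the median of 5 for genes of 10 to 30 kb. Of the 6100 autosomal genes in that class, 53.6% had 5 or fewer and 59.1% had 6 or fewer. The neighbour Dele1 had 9 and Gnpda1 5, and the 500 kb on both sides held 164 intervals around Pcdh1 and 165 around Pcdh12.

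Pcdh7, an adhesion gene of brain and other tissues, held 3 intervals (0.619 to 8.77) over 417 kb on chromosome 5 (57716145 to 58133236). They lay 3.29, 224 and 282 kb past the transcript start that RefSeq gives, on the plus strand. Genes over 300 kb had a median of 6, and 41.9% of these 532 genes had 3 or fewer. The 500 kb on both sides of Pcdh7 held only 3 intervals.

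Pcdh15 encodes a protein of the tip link, the filament that pulls open the transduction channels of inner ear hair cells. Its span of 1554 kb on chromosome 10 is the longest among the protocadherins and held 1 interval (0.0253 to 5.57), at 74158784 to 74158976. That is 337 kb past the RefSeq start used here, and 29.1% of genes over 300 kb had 1 or fewer. Intervals were unevenly spread around it, with 0 in the 500 kb on its lower side and 97 on its upper side.

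The remaining 6 single genes had no interval within 5 kb. Pcdh9, over 879 kb on chromosome 14 (93013700 to 93892834), is the longest of them, and 16.9% of genes over 300 kb had none. Its nearest intervals lay 974 kb below and 424 kb above the span. Pcdh17 on the same chromosome spans 94 kb, and Pcdh10 on chromosome 3 spans 56.2 kb. Of the genes of 30 to 100 kb, 12% had no interval. Pcdh18 spans 14.1 kb, Pcdh20 6.65 kb and Pcdh8, an activity-regulated gene of neurons, 4.54 kb, and 16.9% and 41.4% of genes of 10 to 30 kb and under 10 kb had none.

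These genes mostly stood in sequence without intervals. The 500 kb on both sides held 0 intervals at Pcdh10, Pcdh18 and Pcdh20, 1 at Pcdh9 and 3 at Pcdh17. Over all autosomal protein-coding genes the median was 137 (quartiles 51 and 230). The exception was Pcdh8, with 130 intervals on its sides, of which 129 were on the lower side, and none nearer than 81.1 kb. The nearest interval to Pcdh10 was 707 kb from its span and that to Pcdh18 541 kb. The neighbouring genes were also far away. The nearest coding gene to Pcdh10 was Pabpc4l at 1006 kb, with 1 interval, and to Pcdh17 Diaph3 at 2118 kb, with 17.

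**Figure D3:**
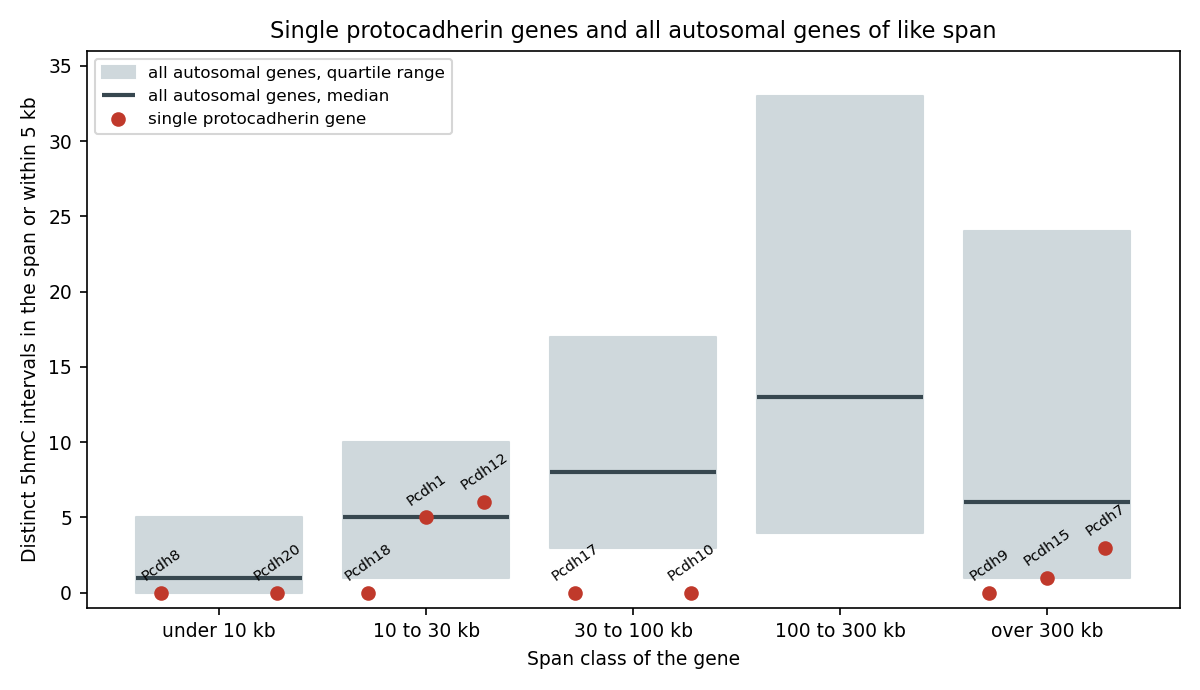
Distinct intervals within 5 kb of each of the 10 single protocadherin genes (red points), by span class, beside the median (dark line) and quartile range (grey) of all autosomal protein-coding genes of the class. Pcdh1 and Pcdh12 stand at 5 and 6 about their class median of 5, and the other 8 lie below the median of their class.

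Of the 6 single genes without an interval, 5 had promoters with more than the median number of CpG, the dinucleotide whose cytosine carries the marks. Pcdh7 and Pcdh15, which had intervals, also exceeded that median, so this was not particular to the genes without one. RefSeq promoters of GRCm38.p6, from 250 bases before to 50 after the start, were at hand for the 8 single genes that lie away from the clusters. None of their 9 promoters held an interval midpoint, against 4.86% of 31396 autosomal promoters with one. With only 9 promoters, a count of none cannot be told apart from that share. The letters CG, which read the same on both strands, occurred 26 times in the promoter of Pcdh17, 24 in that of Pcdh10 and 23 in that of Pcdh18. They occurred 18 and 19 times in the overlapping pair of Pcdh9, 14 times at Pcdh8, 11 at Pcdh7, 8 at Pcdh15 and 4 at Pcdh20. The median over autosomal promoters was 7 (quartiles 3 and 21). The starts of Pcdh20 and Pcdh15, with the fewest, were 557 and 337 kb from the nearest interval. As many as at Pcdh17 were found in 17.4% of autosomal promoters, and as many as at Pcdh10 in 20.5%.

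The 250 bases upstream of Pcdh10 (chr3:45378148-45378397, plus strand) and of Pcdh7 (chr5:57717831-57718080, plus strand) are shown, with each CG in capitals. On chromosome 3, Pcdh10 has the most CG over the whole promoter, 24 against 23 at Pcdh18. In the 250 upstream bases alone Pcdh18 has 23. Of the 8 single genes with a promoter at hand, Pcdh7 is the one whose start is nearest to an interval. Pcdh10 has 22 in these bases and its nearest interval is 731 kb from its start, while Pcdh7 has 7 and an interval 3.29 kb past its start.
Pcdh10: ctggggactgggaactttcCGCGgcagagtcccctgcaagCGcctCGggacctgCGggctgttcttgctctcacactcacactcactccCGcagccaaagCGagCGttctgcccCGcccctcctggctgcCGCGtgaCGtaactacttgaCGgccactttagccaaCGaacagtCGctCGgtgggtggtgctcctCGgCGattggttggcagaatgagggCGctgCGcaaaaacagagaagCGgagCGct
Pcdh7: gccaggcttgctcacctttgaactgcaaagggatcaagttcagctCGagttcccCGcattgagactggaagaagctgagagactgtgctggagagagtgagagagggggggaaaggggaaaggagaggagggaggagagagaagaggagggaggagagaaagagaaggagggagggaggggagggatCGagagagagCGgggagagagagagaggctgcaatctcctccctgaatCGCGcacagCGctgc

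Compared with the nearest relatives in protein structure, the single protocadherins had the lowest share with an interval, at 4 of 10 genes (40%, Wilson interval 16.8 to 68.7%), against 76.1% of all autosomal genes. Of the 23 other autosomal cadherins with a number in the symbol Cdh, 15 had an interval (65.2%, 44.9 to 81.2%), and of the 9 large cadherins of the Fat, Dchs and Celsr kinds 8 had one (88.9%, 56.5 to 98%). The Wilson intervals overlap, so these shares are not told apart by them, and the share of the cadherins also lay below that of all autosomal genes. The medians were 0, 2 and 2 intervals, and the highest counts 6, 137 and 77.

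The tip link offers a direct contrast. Pcdh15 forms the lower part of that filament and Cdh23 the upper part. Pcdh15 held 1 interval in its 1554 kb, and Cdh23 held 130 in 394 kb, or 33 per 100 kb of span. Cdh23 and Pcdh15 are both on chromosome 10.

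Among the other cadherins, Cdh1, the E-cadherin of epithelia, had 21 intervals within 5 kb, and Cdh5, the VE-cadherin of endothelium, Cdh3 and Cdh15 had 15 each. Cdh2, the N-cadherin, had none, nor did Cdh6, Cdh7, Cdh8, Cdh9, Cdh10, Cdh12 and Cdh20. Celsr1, a planar cell polarity gene, had 77, Celsr3 20 and Celsr2 10. Dchs1 had 8, Fat2 and Fat3 had 2 each and Fat1 and Fat4 1 each. Dchs2 had none.

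**Figure D4:**
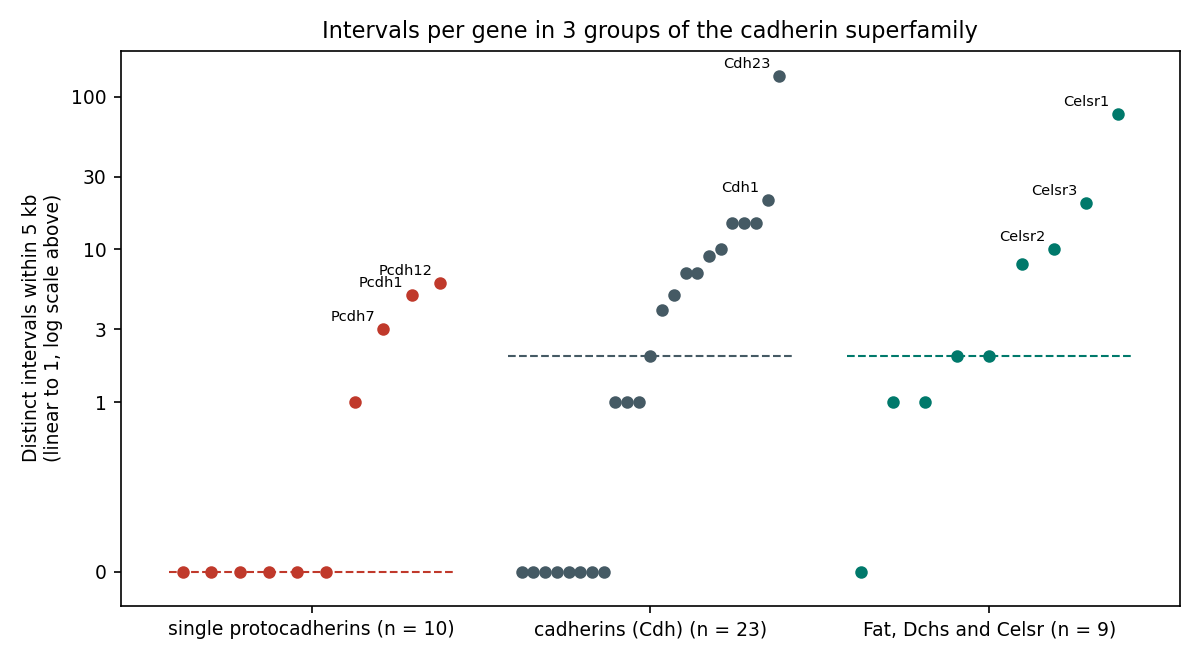
Distinct intervals within 5 kb of each gene for the 10 single protocadherins, 23 cadherins and 9 genes of the Fat, Dchs and Celsr kinds, with dashed lines at the medians of 0, 2 and 2. The axis is linear to 1 and logarithmic above, and the highest points are Pcdh12 at 6, Cdh23 at 137 and Celsr1 at 77.

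Genes that act on the clusters, and kinases that bind the clustered proteins, had an interval at a share near that of other genes of their span. Of 16 such genes found in the annotation, 16 had at least 1 within 5 kb, with a median of 10.5. The share was 76.1% over all autosomal genes and 88% and 88.4% at spans of 30 to 100 and 100 to 300 kb, where most of the 16 fall. Ctcf, which binds at the clustered promoters and their enhancers, had 12. Of the cohesin subunits, Rad21 had 10, Smc3 7 and Stag1 12, and the loaders Nipbl and Mau2 had 24 and 5. Pds5a had 16, Pds5b 15 and the release factor Wapl 1. Of the silencing genes, Smchd1, which keeps clustered protocadherins silent, had 11, the histone methyltransferase gene Setdb1 7 and the DNA methyltransferase gene Dnmt3b 6. Wiz and Zfp143, which are linked to CTCF at chromatin contacts, had 18 and 7. Of the kinases that bind the shared cytoplasmic part of the clustered proteins, Ptk2b had 80 and Ptk2 6.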

How the data were processed

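Per the labels' protocols, β-glucosyltransferase put an azide-modified glucose on the 5hmC of sheared DNA, biotin was clicked to it, and the captured fragments were read by paired-end sequencing. Per the file headers, the authors called peaks with PICS from reads of 99 bp and fragments of 200 bp, in windows 250 bp wide shifted in steps of 20 bp, where a window needed 3 reads and a region 10. The build, mm10, is from the submitters' processing notes. No aligner is named in the sources used here. The deposited lists hold start and end positions only. Positions at the chromosome 18 clusters are multiples of 4 bp, so distances there are exact to a few bp. Depth per sample is unknown.

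Repeated lines were counted once. Gene spans were read from RefSeq (GRCm38.p6, the assembly behind mm10), with no strand or exons, and models that start below 3 Mb were left out. The direction of Pcdha and Pcdhg was read from the end that their spans share. Intervals are exact Poisson for counts and Wilson for shares, at 95% (Python 3.11.15, scipy 1.17.1). The counting was tested on simulated intervals. Named genes were all single protocadherins, all with an interval, the first and last gene of each cluster, the neighbours, the relatives with most intervals, the regulators and the kinases that bind the clustered proteins. The members, gene lists and comparisons were chosen with earlier results of these data known. Alternatives were repeated lines kept, overlap in place of midpoint, other flanks, each list left out, genes over 1 Mb left out and another split of the constant end.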

Additional observations from a re-analysis of the deposited data

How the results depend on the processing

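With repeated lines kept, the counts were 7 for Pcdha, 2 for Pcdhb, 305 for Pcdhg and 314 for the 3 clusters, against 1, 1, 16 and 18 distinct intervals. Taking the downstream part from the first c type gene, an alternative added after the data were seen, put 73.3% of the Pcdhg intervals there, against 40% from the last gene. The share of protocadherin genes with an interval was 49.3% by span alone, against 69.4% of autosomal genes, and 52.2% with 10 kb on both sides, and 50% without the gene over 1 Mb, Pcdh15. An overlap of 1 bp in place of the midpoint changed none of the 21 values recomputed. With 10 kb on both sides Pcdh12 had 10 intervals in place of 6, the total of the single genes was 20 in place of 15, and the share at the constant end of Pcdhg was 47.1%. This last share, 8 of 17, also took in intervals up to 10 kb outside the cluster, while the 40% counted only those inside it. By ratio Pcdh12 moved most. Leaving out either leukaemia list changed nothing, because the lists are identical, which says nothing about stability. No paired analysis was possible because no list of normal marrow was analysed here and no result comes from a test. Without exons, read counts or scores, intervals could not be placed in exons or ranked. An unlisted site may hold 5hmC below what the caller required, or no more of it than the control holds.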

Other observations

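The 540 kb without an interval between Pcdha7 and Pcdhb21 holds 27 protein-coding genes. On the autosomes, 687 stretches between consecutive intervals were as long, and 14 of these, this one included, held 27 protein-coding genes or more. In 8 of the 14 the commonest genes were olfactory receptors (Olfr), with up to 86 in 1 stretch on chromosome 2. In 2 they were vomeronasal receptors (Vmn1r), and in 1 each they were defensins (Defa), hair keratin-associated proteins (symbols starting Krta) and the skin barrier genes Lce. The remaining one was the protocadherin stretch. Olfactory and vomeronasal receptors are, like the clustered protocadherins, tandem gene families from which a sensory or nerve cell uses few members. Whether this has to do with the lack of intervals was not tested, and the list also holds the Defa, Krta and Lce stretches. This count was made after the stretch had been seen.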
